A study of Mus musculus with 27 samples.

Results

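Brain endothelial genes were followed by name in a bulk RNA-sequencing study of mouse frontal cortex (FC) and striatum (STR). They are Cldn5, Pecam1, Flt1, Tek, Cdh5, Vwf, Slc2a1, Abcb1a, Mfsd2a and Plvap, 10 genes of the 52636 gene identifiers counted, taken by symbol. Adult mice of about 2.5 months on the 129S1 background were either wild type or Igf2enh-/-, homozygous for a 4.9 kb deletion between H19 and Igf2 (mm9 chr7:149796331-149801250) that leaves a loxP site after Hprt-CRE removed the Pgkneo cassette. Frontal cortex gave 6 wild-type libraries (3 female, 3 male) and 6 Igf2enh-/- libraries (3 female, 3 male), and striatum gave 7 wild-type libraries (3 female, 4 male) and 8 Igf2enh-/- libraries (4 female, 4 male). The deletion is germline and present in every cell, and the labels do not say which cortical and striatal libraries came from the same mouse, so libraries were treated as independent.

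The endothelial cells that line brain capillaries form the blood-brain barrier. Claudin-5, encoded by Cldn5, seals the tight junctions between them, Slc2a1 encodes the glucose transporter GLUT1, Abcb1a encodes the efflux pump P-glycoprotein, and Mfsd2a encodes a lipid carrier that keeps vesicle transport across the cell low. Plvap forms the diaphragms of fenestrae and caveolae in leaky vessels. It is kept low in mature barrier capillaries and is known from vessels of the choroid plexus and the circumventricular organs. The other members are shared by most endothelium: Pecam1 and Cdh5 encode adhesion molecules of the cell contacts, Flt1 a receptor for VEGF, Tek the angiopoietin receptor Tie2, and Vwf a clotting protein that endothelial cells store and release. In adult brain, Igf2 is made mainly by the meninges, the choroid plexus and cells of blood vessels.

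The DNA just before the transcription start of the 4 barrier genes is shown because these are the genes set against Plvap in the comparisons that follow. RefSeq promoter entries were used for Cldn5, Flt1, Tek, Slc2a1, Abcb1a and Mfsd2a, 6 of the 10 members. Each line gives the 250 bases before the start used by the promoter entry in GRCm38.p6, 5′ to 3′ on the gene's own strand. Capitals mark a match, on either strand, to GGAAG (the core that ETS factors such as Erg recognise), GGGCGG (the GC box) or CCAAT (the CCAAT box). Cldn5 lies at chr16:18776597-18776846 on the plus strand, Slc2a1 at chr4:119108495-119108744 on the plus strand, Abcb1a at chr5:8566841-8567090 on the plus strand, and Mfsd2a at chr4:122961189-122961438 on the minus strand. The annotated Mfsd2a gene reaches to chr4:122961194, so the last few bases of its window lie inside the gene.
Cldn5: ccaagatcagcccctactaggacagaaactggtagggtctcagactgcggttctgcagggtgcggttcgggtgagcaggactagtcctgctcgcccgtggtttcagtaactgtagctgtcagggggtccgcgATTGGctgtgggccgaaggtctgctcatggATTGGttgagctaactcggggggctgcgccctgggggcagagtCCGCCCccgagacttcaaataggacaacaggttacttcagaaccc
Slc2a1: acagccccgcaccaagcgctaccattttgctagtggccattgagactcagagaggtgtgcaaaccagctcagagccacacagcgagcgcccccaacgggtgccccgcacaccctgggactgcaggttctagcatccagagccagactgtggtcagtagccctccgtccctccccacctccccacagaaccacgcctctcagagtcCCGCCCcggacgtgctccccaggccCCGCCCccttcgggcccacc
Abcb1a: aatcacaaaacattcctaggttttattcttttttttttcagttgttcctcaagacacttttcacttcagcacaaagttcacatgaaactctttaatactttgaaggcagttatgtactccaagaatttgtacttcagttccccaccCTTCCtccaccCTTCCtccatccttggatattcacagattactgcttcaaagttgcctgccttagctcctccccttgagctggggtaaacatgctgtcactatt
Mfsd2a: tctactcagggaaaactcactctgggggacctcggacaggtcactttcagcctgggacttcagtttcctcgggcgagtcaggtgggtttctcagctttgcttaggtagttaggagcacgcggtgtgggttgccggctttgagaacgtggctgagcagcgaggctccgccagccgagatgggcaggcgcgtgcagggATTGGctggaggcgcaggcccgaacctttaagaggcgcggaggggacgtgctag

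The 4 sequences differed in composition. G and C made up 59.6% of the bases before Cldn5, 66.4% before Slc2a1, 61.6% before Mfsd2a and 40.4% before Abcb1a. The Cldn5 window held 2 CCAAT boxes and 1 GC box, that of Slc2a1 2 GC boxes, that of Mfsd2a 1 CCAAT box and that of Abcb1a 2 ETS cores, and no motif was common to all 4. Among 32851 RefSeq promoters, windows of the same length held GGAAG in 64.1%, GGGCGG in 32.7% and CCAAT in 33.8%, so each of these matches is common. They describe the letters of the window and say nothing of binding.

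Library totals ran from 23686945 to 33926904 counts. All 10 members were well above the filter of at least 1 CPM (counts-per-million) in every library: the lowest value of any member was 10.6 CPM, from 271 counts. The regional labels fitted the neuronal markers, with Drd1 at 6.63 to 11.2 CPM in frontal cortex and 143 to 401 CPM in striatum, and Slc17a7 at 1482 to 1682 CPM and 13.6 to 750 CPM in the same order. Slc17a7 was highest, among striatal libraries, in wild-type male library 20. Striatal library 15, from an Igf2enh-/- female, held 3050 CPM of the choroid plexus gene Ttr, against a median of 11.3 CPM over the striatal libraries, and results were also computed without these 2 libraries. Plvap was at 16.4 CPM in library 15, inside the range of the other Igf2enh-/- striatal libraries. Igf2, the gene beside the deletion, had a higher level in Igf2enh-/- frontal cortex (log2 fold change 0.77, standard error (SE) 0.134, adjusted p = 0.0286 in edgeR). In striatum its log2 fold change was 0.89 (SE 0.326) and did not pass (adjusted p = 0.387 in edgeR). Striatal Igf2 ran from 34.1 to 44.0 CPM in wild type (median 37.05) and from 46.0 to 258.8 CPM in Igf2enh-/- (median 51.8). These groups did not overlap, which held in this direction for 0.101% of all genes tested in striatum. The mean of striatal Igf2 in Igf2enh-/- was 78.25 ± 73.13 CPM (SD, n = 8), above its median, so the fold change leans on the top of the range. No value for Igf2 without libraries 15 and 20 is given here. The paper reported higher Igf2 in both regions of Igf2enh-/- mice. It used a Wilcoxon-Mann-Whitney test on the levels of Igf2 alone, which is a different measure from a p adjusted over all genes. In bulk tissue, fewer endothelial cells and less RNA per endothelial cell cannot be told apart.

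Set against gene length, Slc2a1 was the highest member and Vwf the lowest. Per kilobase of exon, Slc2a1 averaged 31.4 ± 6.43 CPM (SD, n = 27 libraries), Cldn5 21.0 ± 4.33 and Mfsd2a 12.0 ± 1.69. Flt1 at 7.60 ± 0.636, Plvap at 7.39 ± 1.02 and Abcb1a at 6.61 ± 0.627 CPM per kilobase came next, and the mean ± SD ranges of neighbours among these 3 overlapped. Pecam1 followed at 4.66 ± 0.421, Cdh5 at 3.51 ± 0.364, Tek at 2.98 ± 0.386 and Vwf at 1.62 ± 0.249 CPM per kilobase. The ranges of Cdh5 and Tek overlapped too, as did those of Slc2a1 and Cldn5, while the other neighbours were farther apart than their SDs. Flt1 and Plvap changed places between the regions, with Plvap ahead in frontal cortex (7.83 against 7.40 CPM per kilobase) and behind in striatum (7.04 against 7.76). The fenestration gene was thus counted at a level per kilobase above those of Pecam1, Cdh5 and Tek. Plvap (chr8:71497753-71511806 in GRCm38.p6) overlaps the neighbouring gene Gtpbp3 over 1872 bases, and Gtpbp3 was counted at 22.5 to 31.6 CPM. Plvap also overlaps the protein-coding gene Gm46041 over 2861 bases. The strands of these genes relative to Plvap are not given here, so the level of Plvap is uncertain to that extent. Across the annotation, genes inside an intron of a gene on the opposite strand had a median of 3.08 counts per kilobase (n = 266), and those on the same strand as their host 62.85 (n = 80). Abcb1a can share reads with its close relative Abcb1b, counted at 1.38 to 3.08 CPM, and overlaps Rundc3b, so its level is uncertain to that extent.

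**Figure D1:**
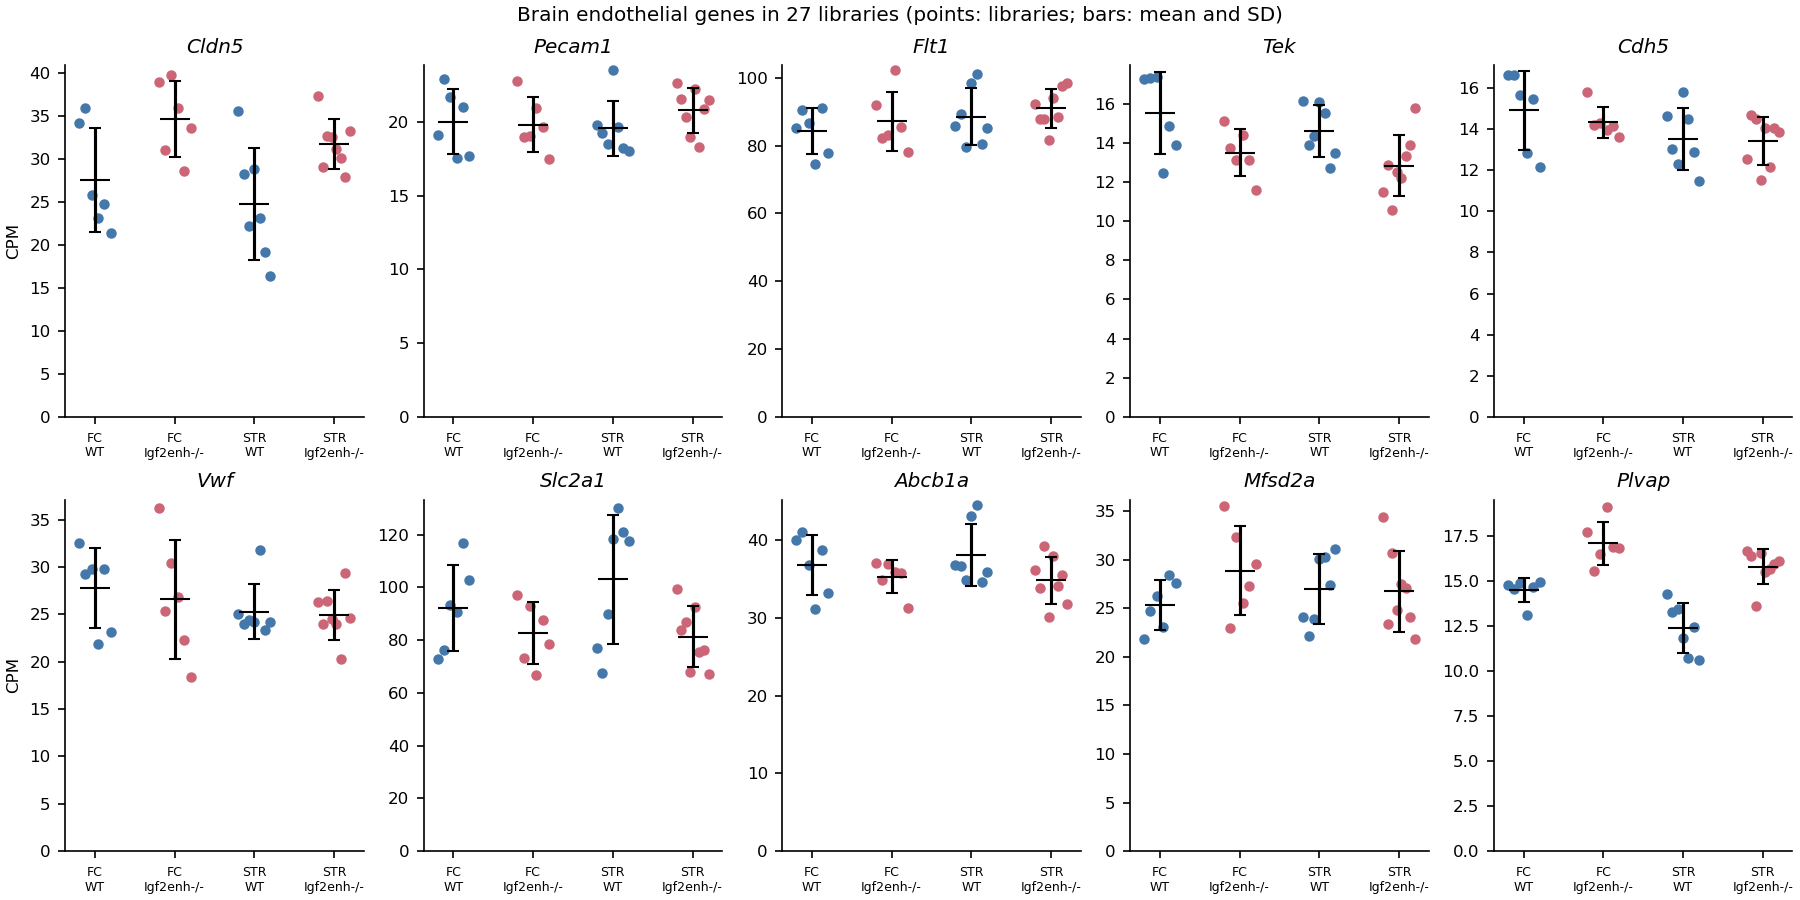
Level of each of the 10 genes in CPM (vertical axes, from 0) in the wild-type (WT, blue) and Igf2enh-/- (red) libraries of frontal cortex (FC) and striatum (STR). Points are libraries and black bars are the group mean and SD. Plvap is the member whose frontal cortex groups do not overlap, at 13.1 to 14.9 CPM in wild type and 15.5 to 19.1 CPM in Igf2enh-/-.

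The study deleted the enhancer to ask what it controls in the adult brain, and the genotype comparison asks here whether the endothelial genes differ between the genotypes. Plvap and Cldn5 had the largest positive differences in both regions, Tek was lower in both, and Pecam1, Flt1, Cdh5 and Vwf differed little. None of the 10 members passed an adjusted p under 0.05 in edgeR's quasi-likelihood test in either region. Of all 13936 genes tested in frontal cortex 0.38% passed, and of the 13875 tested in striatum 0.036%. At an unadjusted p under 0.05 there were 3 members in frontal cortex (Plvap, Cldn5 and Tek) against 13.5% of all genes, and 4 in striatum (the same 3 and Slc2a1) against 10.1% of all genes. Of the other tools, edgeR's likelihood ratio test and DESeq2 each called 2 members in frontal cortex, where they called 1.66% and 1.77% of all genes, and 1 member in striatum, where they called 0.404% and 0.807%. With limma-voom 0 members were called in either region. The median log2 difference of the members was -0.03 in frontal cortex and -0.0071 in striatum, beside 0.00073 and 0.00040 over all genes tested.

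Plvap, the fenestration gene, was higher in Igf2enh-/- tissue of both regions without passing the quasi-likelihood test, though it passed the likelihood ratio test in both. In frontal cortex the 6 wild-type libraries held 13.1 to 14.9 CPM with a median of 14.7, and the 6 Igf2enh-/- libraries 15.5 to 19.1 CPM with a median of 16.8. Every Igf2enh-/- library was above every wild-type library, which held in this direction for 0.66% of all genes tested. The log2 fold change was 0.24 (SE 0.0554, 1.18-fold, unadjusted p = 0.000763, adjusted p = 0.0788 in edgeR).

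In striatum the 7 wild-type libraries held 10.6 to 14.3 CPM of Plvap (median 12.4) and the 8 Igf2enh-/- libraries 13.6 to 16.6 CPM (median 16.0). The groups overlapped through a single Igf2enh-/- female, library 17, at 13.6 CPM, below 1 wild-type female at 14.3 CPM, and 0.101% of all genes had striatal groups that did not overlap in this direction. The log2 fold change was 0.35 (SE 0.0643, 1.28-fold, unadjusted p = 6.17e-05, adjusted p = 0.0628 in edgeR), which placed Plvap at rank 12 by p among 13875 genes. The call depended on the tool. Plvap's adjusted p was 0.0161 with the likelihood ratio test and 0.02325 with DESeq2 in frontal cortex, where 21 alternative fits ranged from 0.0161 to 0.162. In striatum it was 0.00384 and 0.000298 with the same tools, over a range of 0.000298 to 0.170 in 26 alternative fits, and without library 17 it was 0.0174 in the quasi-likelihood test. The fold change itself stayed between 0.20 and 0.26 in frontal cortex and between 0.32 and 0.39 in striatum over these fits. Gtpbp3, which overlaps Plvap, had log2 fold changes of -0.05 and -0.06 with adjusted p = 0.713 and 0.803.

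Cldn5 also had higher values in Igf2enh-/- tissue, with more spread between libraries than Plvap. Frontal cortex held 21.4 to 35.9 CPM (median 25.3) in wild type and 28.6 to 39.7 CPM (median 34.7) in Igf2enh-/-. The ranges overlapped because 2 wild-type females were at 34.2 and 35.9 CPM, while the 3 wild-type males were at 21.4 to 24.8 CPM, below every Igf2enh-/- library. The log2 fold change was 0.34 (SE 0.0958, 1.27-fold, adjusted p = 0.140 in edgeR).

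In striatum Cldn5 was at 16.3 to 35.6 CPM (median 23.1) in wild type and 27.9 to 37.3 CPM (median 31.9) in Igf2enh-/-. The 8 Igf2enh-/- libraries were tightly placed and 4 of the 7 wild-type libraries lay below all of them. The log2 fold change was 0.36 (SE 0.128, 1.28-fold, adjusted p = 0.374 in edgeR). In frontal cortex Cldn5's adjusted p was 0.0371 with the likelihood ratio test and 0.0322 with DESeq2, and its 21 alternative fits ranged from 0.000571 to 0.273. In striatum none of the 26 alternative fits called it (adjusted p 0.212 to 0.670).

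The transporters of the barrier had no such positive difference in both regions. Slc2a1, the glucose transporter, was at 73.0 to 117 CPM (median 92.0) in wild-type and 66.9 to 97.1 CPM (median 83.0) in Igf2enh-/- frontal cortex, a log2 difference of -0.15 (SE 0.113, adjusted p = 0.593 in edgeR). In striatum it was at 67.4 to 130 CPM (median 118) in wild type and 67.0 to 99.5 CPM (median 80.2) in Igf2enh-/-, a log2 difference of -0.30 (SE 0.136, adjusted p = 0.474 in edgeR). The wild-type striatal libraries fell into a low and a high set that were the females and the males, and the values by sex are given with the sex comparison.

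Abcb1a, the efflux pump, had medians of 37.7 and 35.8 CPM in wild-type and Igf2enh-/- frontal cortex and 36.7 and 34.8 CPM in striatum. Its log2 differences were -0.06 and -0.13 (SEs 0.0567 and 0.0704, adjusted p = 0.696 and 0.588 in edgeR). Mfsd2a, the lipid carrier, had medians of 25.5 and 28.4 CPM in frontal cortex (log2 difference 0.19, SE 0.0977, adjusted p = 0.425) and 27.4 and 26.0 CPM in striatum (log2 difference -0.0024, SE 0.103, adjusted p = 0.998). The groups of both genes overlapped in both regions.

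Of the members shared by most endothelium, Tek had the largest difference. Its median was 16.1 CPM in wild-type and 13.4 CPM in Igf2enh-/- frontal cortex, and 14.4 and 12.7 CPM in striatum. The log2 differences were -0.20 and -0.18 (SEs 0.0688 and 0.0806, adjusted p = 0.238 and 0.481 in edgeR), with overlapping groups in both regions. Pecam1, Flt1, Cdh5 and Vwf differed by between -0.07 and 0.09 on the log2 scale over both regions, with adjusted p from 0.707 to 0.978. Pecam1, for example, averaged 20.0 ± 2.21 CPM (SD, n = 6) in wild-type and 19.8 ± 1.84 CPM (SD, n = 6) in Igf2enh-/- frontal cortex.

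**Figure D2:**
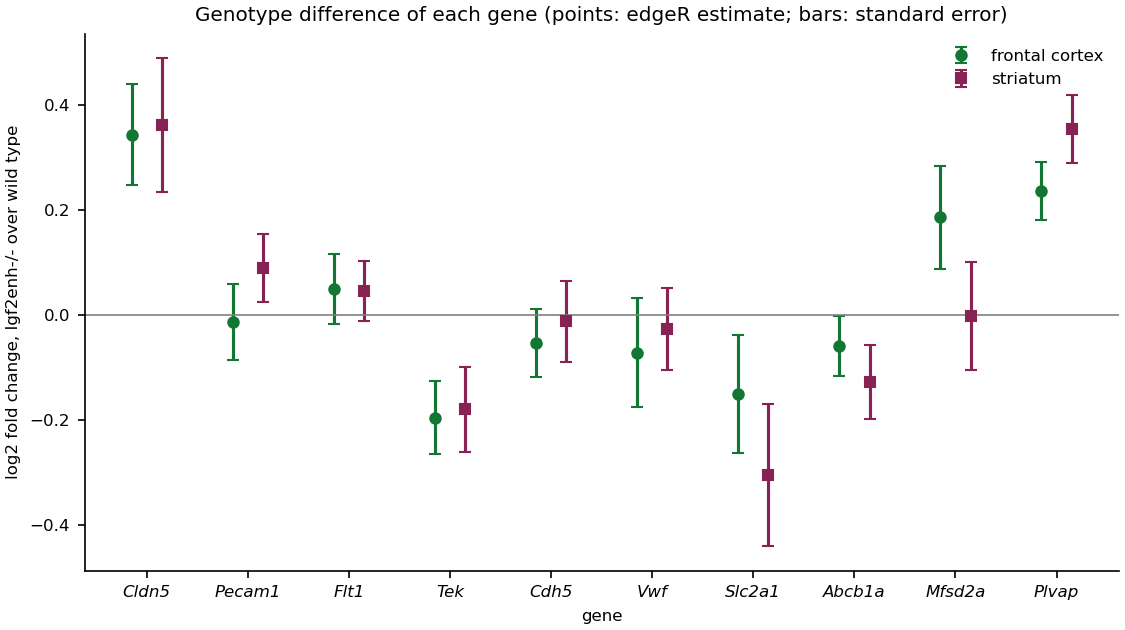
Log2 fold change of Igf2enh-/- over wild type (vertical axis) for the 10 genes (horizontal axis) in frontal cortex (green circles) and striatum (purple squares). Bars are SEs of the edgeR estimate. Plvap (0.24 and 0.35) and Cldn5 (0.34 and 0.36) lie above 0 in both regions and Tek (-0.20 and -0.18) below. No gene passed an adjusted p under 0.05 in the quasi-likelihood test.

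Within each library, Plvap was then set against every other member as a difference of log2(CPM + 0.5), which takes out what changes all endothelial genes of a library alike. These differences are described without a test. Against Cldn5, Plvap stood in frontal cortex at -0.88 (wild type) and -0.99 (Igf2enh-/-) and in striatum at -0.94 and -0.98, so the genotypes differed by less than the pooled SDs of 0.241 and 0.231. Against Slc2a1, the cortical distance was -2.61 (wild type) and -2.23 (Igf2enh-/-), and the striatal one -2.98 and -2.32. The pooled shift was 0.38 and 0.66, with overlapping groups, and it was larger in males than in females, a difference that was not tested on this measure. Striatal males averaged -3.36 in wild type (n = 4) and -2.20 in Igf2enh-/- (n = 4), while striatal females averaged -2.465 (n = 3) and -2.43 (n = 4). Cortical males averaged -2.81 and -2.105 (n = 3 each), and cortical females -2.41 and -2.36 (n = 3 each). Against Abcb1a the pooled shift was 0.28 and 0.47 and against Mfsd2a 0.05 and 0.36, also with overlap. The striatal shift against Mfsd2a was also larger in males (-1.345 and -0.65) than in females (-0.75 and -0.81).

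Against Tek the shift was 0.42 in frontal cortex and 0.53 in striatum, the latter below the 0.66 against Slc2a1. Plvap minus Tek ran from -0.24 to 0.10 in wild-type and from 0.17 to 0.52 in Igf2enh-/- frontal cortex, and from -0.51 to -0.03 in wild-type and from 0.03 to 0.52 in Igf2enh-/- striatum. Of the 9 comparisons, that with Tek was the one in which the genotypes did not overlap in either region. Plvap was higher and Tek lower in Igf2enh-/- on their own, so subtracting them restates these differences and widens the gap. The share of all gene pairs without overlap was not computed. Against the mean of all 9 other members Plvap was higher by 0.22 in Igf2enh-/- frontal cortex and by 0.36 in Igf2enh-/- striatum, beside pooled SDs of 0.114 and 0.183, with overlapping groups. Against the mean of the 4 barrier genes it was higher by 0.15 and 0.36, beside pooled SDs of 0.124 and 0.226, again with overlap. In this last measure the females averaged -1.39 and -1.35 in frontal cortex and -1.40 and -1.36 in striatum, wild type first. The males averaged -1.40 and -1.14 in frontal cortex and -1.83 and -1.22 in striatum, in the same order. The shift was thus mostly in the males, a difference between the sexes that was not tested on this measure.

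**Figure D3:**
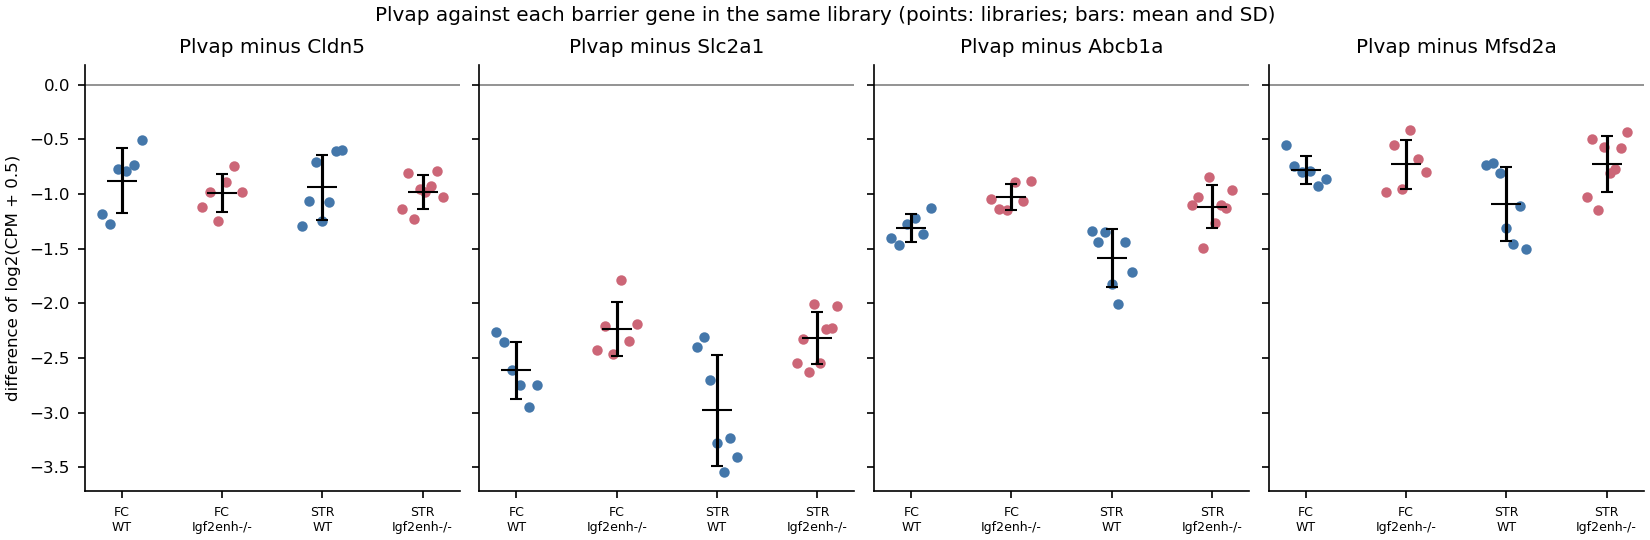
Difference of log2(CPM + 0.5) between Plvap and Cldn5, Slc2a1, Abcb1a or Mfsd2a in the same library (vertical axes), by region and genotype, with wild type (WT) in blue and Igf2enh-/- in red. Points are libraries and black bars are the group mean and SD. The distance to Cldn5 is alike in the 2 genotypes (-0.88 and -0.99 in frontal cortex), while that to Slc2a1 is shorter in Igf2enh-/- (-2.32) than in wild-type striatum (-2.98), with females at -2.465 and -2.43 and males at -3.36 and -2.20 in wild-type and Igf2enh-/- striatum.

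Markers of other cell types were summed in the same libraries. Summed CPM of 12 meningeal fibroblast genes ran from 74.0 to 173.5 in wild-type and from 108 to 182 in Igf2enh-/- frontal cortex, and 6 of the 12 were higher in Igf2enh-/- at an unadjusted p under 0.05 (0 at the adjusted threshold in edgeR), beside 6.87% of all genes. In striatum that sum ran from 29.6 to 38.9 CPM in wild type and from 33.3 to 92.4 CPM in Igf2enh-/-, with the top value in library 15. The 16 choroid plexus genes summed to 232 to 268 CPM in wild-type and 172 to 266 CPM in Igf2enh-/- frontal cortex, where Ttr, their defining gene, was at 0 to 0.719 CPM. In striatum they summed to 173 to 373 CPM in wild type and 183 to 4766 CPM in Igf2enh-/-. The 3 red blood cell genes that could be matched summed to 9.74 to 15.8 CPM in wild-type and 13.8 to 20.3 CPM in Igf2enh-/- frontal cortex, and to 9.82 to 17.7 CPM and 10.9 to 25.4 CPM in striatum. All 3 were higher in Igf2enh-/- frontal cortex at an unadjusted p under 0.05 (0 at the adjusted threshold in edgeR), beside 6.87% of all genes. In striatum 0 of the 3 were. The part of these tissues in the Plvap difference was not tested. Without striatal libraries 15 and 20, Plvap's log2 fold change in striatum was 0.35 (adjusted p = 0.1265 in edgeR, within the range of 0.000298 to 0.170 over its alternatives).

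Between regions few of the endothelial genes differed. Over all 27 libraries, 2 of the 10 members passed the adjusted threshold, both lower in striatum, against 77.7% of the 13414 genes tested. None of the 10 members had regional ranges that did not overlap, while 12.5% of all genes were higher and 13.5% lower in every striatal library. The median regional log2 difference (striatum over frontal cortex) was -0.04 over the members and 0.0090 over all genes tested. All 10 lay between -0.17 and 0.07.

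Plvap averaged 15.8 ± 1.65 CPM in frontal cortex (SD, n = 12) and 14.2 ± 2.10 CPM in striatum (SD, n = 15), a log2 difference of -0.17 (SE 0.0442, adjusted p = 0.00120 in edgeR). Of 39 alternative fits 37 called it (adjusted p 0.000373 to 0.0760), the exceptions being the fit without genotype and sex, at 0.0528, and the Igf2enh-/- libraries alone, at 0.0760. In wild-type libraries alone the difference was -0.22. Cdh5 averaged 14.6 ± 1.43 CPM in frontal cortex (SD, n = 12) and 13.5 ± 1.29 CPM in striatum (SD, n = 15), a log2 difference of -0.11 (SE 0.0512, adjusted p = 0.0498 in edgeR). That call held in 16 of 39 alternative fits (adjusted p 0.0108 to 0.247) and was lost in 18 of the 27 fits that left out 1 library (adjusted p 0.0123 to 0.0918), the largest without library 19, an Igf2enh-/- male. The remaining 8 members, from Cldn5 at -0.13 to Flt1 at 0.07, had adjusted p from 0.178 to 0.868.

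Whether the genotype difference itself differed between regions was tested as a region by genotype term. No member passed at the adjusted or the unadjusted threshold in edgeR, nor at the adjusted threshold in DESeq2 or limma-voom, where 0% of all genes passed the former and 3.02% the latter in edgeR. Plvap's term was 0.11 (SE 0.0873, adjusted p = 1.00 in edgeR) and Cldn5's 0.02 (SE 0.174, adjusted p = 1.00), on the log2 scale, with striatum minus frontal cortex as the sign.

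Sex was a term of each fit and was compared within each region. In frontal cortex 0 members passed the adjusted threshold in edgeR, against 0.0431% of all genes, and 5 of 10 were lower in males at an unadjusted p under 0.05, against 7.56% of all genes in either direction and 3.89% lower in males. These were Vwf, Cldn5, Tek, Cdh5 and Abcb1a, with log2 differences (male over female) of -0.37, -0.31, -0.22, -0.18 and -0.14, and the adjusted p of Vwf was 0.495. RNA concentration separated the sexes in frontal cortex, at 134.8 to 254.2 ng/ul in females and 258.1 to 514.1 ng/ul in males, so it and sex cannot be told apart there. With it in the fit, Cldn5 moved to -0.53 (adjusted p = 0.776 in edgeR, range over its alternatives 0.00509 to 0.922) and Tek to -0.31. In striatum 0 members passed either threshold in edgeR, against 0.0432% and 10.8% of all genes. DESeq2, limma-voom and the likelihood ratio test called none of the members in either region. The striatal libraries fell under different trimming records, with most females under one and most males under the other. Sex and trimming record are thus partly confounded in striatum. With the record in the fit, 2955 genes had an unadjusted p under 0.05 for sex in edgeR, against 1496 without it. In the same frontal cortex comparison 7 of the 12 meningeal fibroblast genes and 4 of 10 pericyte and smooth muscle genes were lower in males at an unadjusted p under 0.05, with medians of -0.34 and -0.17, and their part in the members' difference was not tested.

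Slc2a1 was the member whose genotype difference depended most on sex. In striatum the 4 wild-type males held 117.5, 118.5, 121 and 130 CPM, and the 4 Igf2enh-/- males 67.0, 68.0, 75.5 and 92.6 CPM. The 3 wild-type females held 67.4, 77.1 and 89.9 CPM, and the 4 Igf2enh-/- females 76.3, 84.0, 86.8 and 99.5 CPM. The males of the 2 genotypes did not overlap, the females overlapped, and the wild-type males stood above all other striatal libraries. The share of all genes whose striatal males do not overlap by genotype was not computed, and groups of 4 separate easily. The sex by genotype term was -0.84 on the log2 scale (SE 0.163, unadjusted p = 0.000147 in edgeR's quasi-likelihood test), the second lowest p of 13875 genes.

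After adjustment over all genes this term did not pass in edgeR's quasi-likelihood test (adjusted p = 1.00 when rounded), nor in limma-voom (0.851). It passed in the likelihood ratio test (0.0199, with 0.00721% of all genes) and in DESeq2 (0.0159, with 0.0144%), over a range of 0.0159 to 1.00 in 25 alternative fits. In frontal cortex Slc2a1 had the same order, with wild-type males at 90.8, 103 and 117 CPM, Igf2enh-/- males at 66.9, 78.4 and 87.6 CPM, wild-type females at 73.0, 76.2 and 93.3 CPM and Igf2enh-/- females at 73.4, 93.1 and 97.1 CPM. The cortical term was -0.53 (SE 0.181, unadjusted p = 0.0111, adjusted p = 0.764 in edgeR), and 1 of 20 alternative fits called it (adjusted p 2.57e-06 to 0.995), the fit without a filter on low counts.

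Mfsd2a and Plvap followed with smaller terms in striatum. Mfsd2a averaged 29.7 ± 1.61 CPM in wild-type males (SD, n = 4) and 25.3 ± 2.58 CPM in Igf2enh-/- males (SD, n = 4), and 23.4 ± 1.09 CPM in wild-type females (SD, n = 3) and 28.1 ± 5.31 CPM in Igf2enh-/- females (SD, n = 4). Its term was -0.51 (SE 0.164, unadjusted p = 0.00813 in edgeR). Plvap averaged 11.4 ± 0.871 CPM in wild-type males and 15.9 ± 0.474 CPM in Igf2enh-/- males, and 13.7 ± 0.530 and 15.6 ± 1.39 CPM in the females. Its term was 0.28 (SE 0.111, unadjusted p = 0.0247 in edgeR). In striatum 3 members passed the unadjusted threshold, against 2.56% of all genes, and in frontal cortex 1 did, against 6.36%. At the adjusted threshold 0 members passed in either region, against 0% of all genes in striatum and 0.0215% in frontal cortex.

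**Figure D4:**
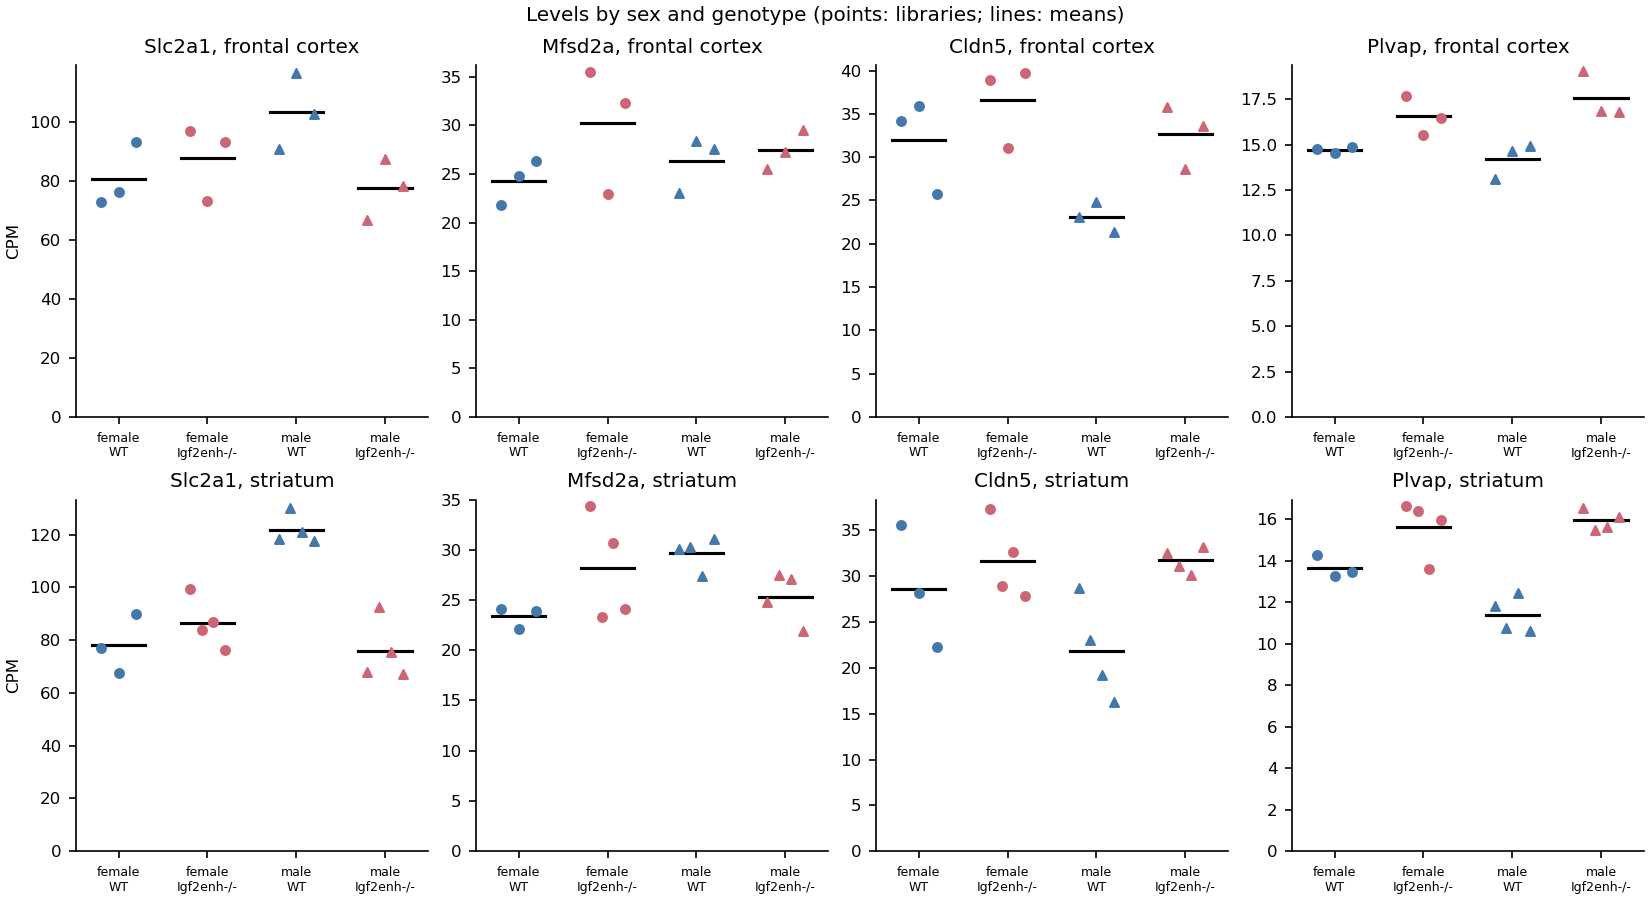
Level in CPM (vertical axes, from 0) of Slc2a1, Mfsd2a, Cldn5 and Plvap by sex and genotype in frontal cortex (top) and striatum (bottom), with wild type (WT) in blue and Igf2enh-/- in red. Circles are libraries of females, triangles libraries of males and lines means. In striatum the wild-type males hold the highest Slc2a1 (117.5 to 130 CPM) and the lowest Plvap (10.6 to 12.4 CPM).

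Other genes of brain vessels were counted in lists beside the members, from the quasi-likelihood fit alone. Of all genes, 6.87% were higher and 6.6% lower in Igf2enh-/- at an unadjusted p under 0.05 in frontal cortex, and 4.94% and 5.11% in striatum, and the counts of these lists are to be read against those shares. In the genotype comparison, 1 gene of all vascular lists passed the adjusted threshold in frontal cortex and 0 in striatum. It was Itm2a, of the list of 15 general endothelial genes, with a log2 difference of -0.26 (SE 0.0520, adjusted p = 0.0448 in edgeR) in frontal cortex and -0.25 (SE 0.0850, adjusted p = 0.342) in striatum. Sox18, an endothelial transcription factor, stood at 0.44 and 0.54 (adjusted p = 0.195 and 0.241), and Ptprb, a phosphatase that acts on Tie2, at -0.20 (adjusted p = 0.113) in frontal cortex. The general endothelial list had 1 gene higher and 2 lower at an unadjusted p under 0.05 in frontal cortex and 2 higher and 2 lower in striatum, with medians of -0.02 and -0.07.

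Among 11 genes of the Wnt programme that maintains the barrier, 0 were higher and 1 lower at the unadjusted threshold in frontal cortex, and 0 and 2 in striatum. Fzd4, the receptor for norrin, had the smallest p in frontal cortex, at -0.40 (SE 0.0804, adjusted p = 0.0508 in edgeR), and stood at -0.34 in striatum (adjusted p = 0.446). Of 9 genes of barrier transport, 1 was higher and 2 lower in frontal cortex, and 0 and 2 in striatum. The organic anion carrier Slco1a4 was among the lower ones in both, at -0.17 and -0.16 (adjusted p = 0.153 and 0.462), and Abcc4, an efflux pump, was at 0.25 in frontal cortex (adjusted p = 0.180). These are differences that did not pass the test after adjustment.

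Of 5 caveola genes, 1 was higher and 2 lower at the unadjusted threshold in frontal cortex, and 1 and 0 in striatum, with medians of -0.13 and -0.05. Cavin3 stood at 0.27 in frontal cortex (SE 0.0582, adjusted p = 0.0604 in edgeR) and 0.17 in striatum (adjusted p = 0.415). Cav1, the main caveola protein, stood at -0.19 (adjusted p = 0.183) and -0.15 (adjusted p = 0.624), and Cav2 at -0.14 in frontal cortex (adjusted p = 0.207). Among the VEGF and angiopoietin genes, Kdr, the main VEGF receptor, stood at 0.20 and 0.35 (adjusted p = 0.362 and 0.399), with 2 cortical genes of 8 tested and 1 striatal gene of 6 higher at the unadjusted threshold. Among 9 junction genes, 1 was higher in frontal cortex (Lsr, a tricellular junction protein, at 0.24, adjusted p = 0.339) and 0 in striatum. Of the 10 pericyte and smooth muscle genes tested, 1 was higher in frontal cortex and 1 lower in striatum at that threshold, with medians of 0.01 and -0.08.

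Genes of the vascular lists also differed between regions. Beside 2 of 10 members, the adjusted threshold was passed by 8 of 15 general endothelial genes (5 higher and 3 lower in striatum), 5 of 9 junction genes (5 higher), 5 of 9 barrier transport genes (2 higher, 3 lower), 5 of 11 Wnt programme genes (2 higher, 3 lower), 3 of 5 caveola genes (3 lower), 4 of 6 VEGF and angiopoietin genes (2 higher, 2 lower) and 3 of 10 pericyte and smooth muscle genes (2 higher, 1 lower). Each of these shares was below the 77.7% of all genes. Cd34, which other cells also use, was lower in striatum by a log2 difference of -2.285 (adjusted p = 3.56e-13 in edgeR), as were Cav2 at -1.02 and Tfrc, the transferrin receptor, at -0.60. Tspan12, a partner of Fzd4, was higher in striatum at 0.39 (adjusted p = 6.55e-10 in edgeR) and F11r, a junction adhesion molecule, at 0.48 (adjusted p = 9.10e-09).

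Across the 27 libraries, with each region's mean taken out, some members rose and fell together. Pecam1, Flt1, Cdh5, Abcb1a, Vwf and Tek had Pearson's r of 0.35 to 0.74 between any pair of them. Slc2a1 and Mfsd2a went together at r = 0.64, and Cldn5 and Plvap at r = 0.69, while Cldn5 was also at 0.50 with Pecam1 and 0.40 with Cdh5. Plvap was at -0.615 with Slc2a1, -0.43 with Abcb1a and -0.05 with Cdh5. With the mean of each genotype in each region taken out as well, Slc2a1 and Mfsd2a were at 0.81, and Plvap and Slc2a1 at -0.48. In that measure Cldn5 was nearer to Cdh5 (0.58), Pecam1 (0.50) and Tek (0.45) than to Plvap (0.44). Against the summed level of the 15 general endothelial genes, Abcb1a was at r = 0.74, Cdh5 at 0.68 and Tek at 0.48. Flt1 was at 0.40, Pecam1 at 0.39, Slc2a1 at 0.32 and Vwf at 0.25. Mfsd2a at 0.11 and Cldn5 at 0.10 followed that sum little, and Plvap was at -0.37. These are descriptions over n = 27 libraries, which share genotypes and sexes.

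**Figure D5:**
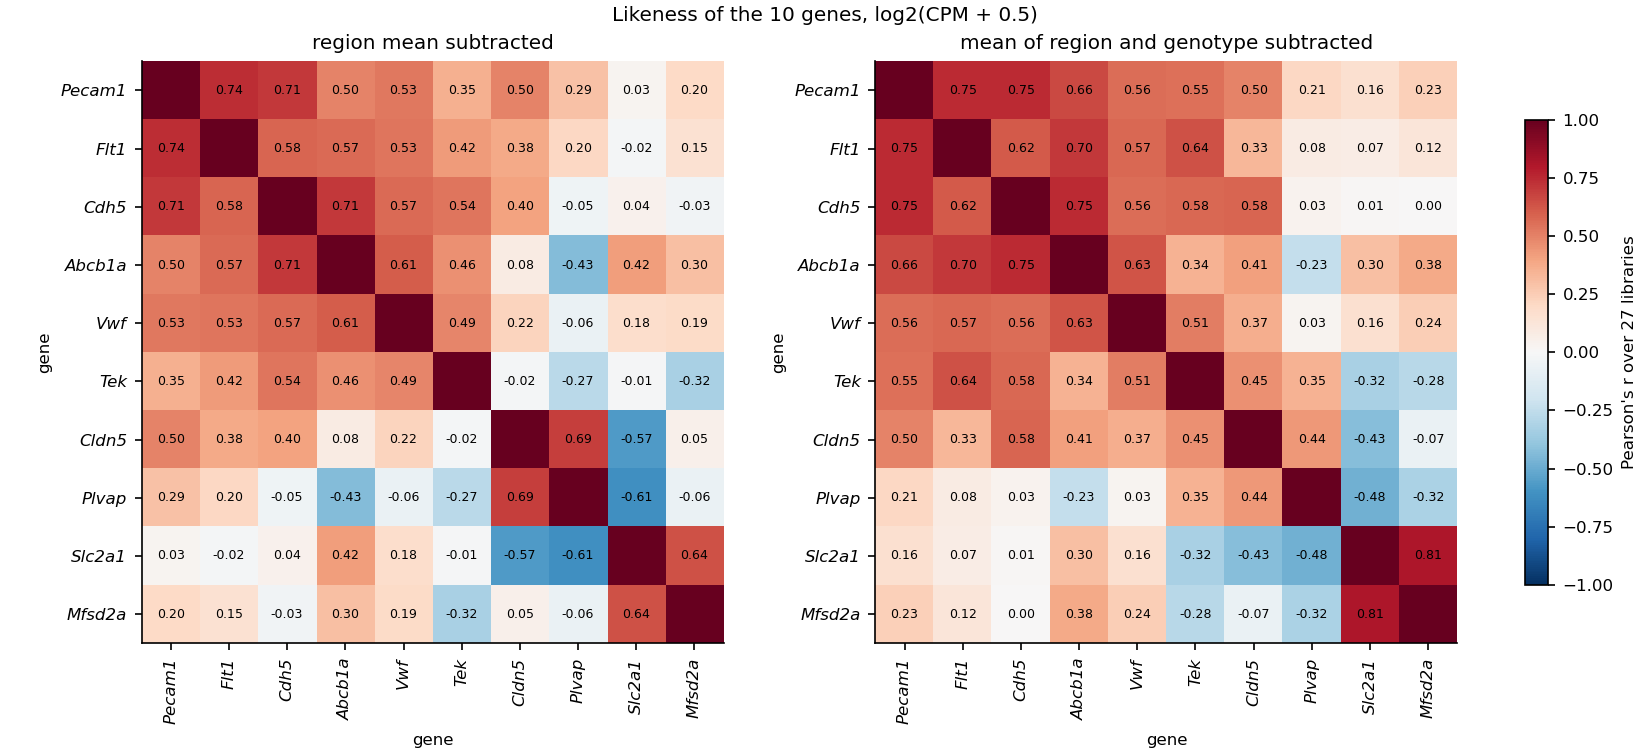
Pearson's r between the 10 genes over 27 libraries, on log2(CPM + 0.5), with the region mean subtracted (left) or the mean of each genotype in each region subtracted (right). Red cells are positive and blue cells negative. Pecam1, Flt1, Cdh5, Abcb1a, Vwf and Tek are positive with each other in both panels, while Plvap and Slc2a1 are negative (-0.615 and -0.48).

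The genes most like Cldn5 and Plvap were read from all 13414 genes tested. For Cldn5 they were Pex6 (r = 0.82), Tmem256 (0.80), Sphk2 (0.80), the clock gene Arntl (0.80) and the endothelial factor Sox18 (0.79), and with the group means taken out these stood at 0.64 to 0.77. For Plvap they were Exoc1 (0.84), Pdia3 (0.77), Gm5124 (0.77), Calr (0.77) and Pdia6 (0.75), of which Pdia3, Calr and Pdia6 encode folding factors of the endoplasmic reticulum. With the group means taken out the 5 stood at 0.20 to 0.56, and Plvap with Gtpbp3 went from -0.16 before that step to 0.12 after it. With library 15 left out, the 10 values of r ran from 0.73 to 0.85.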

How the data were processed

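Total RNA from frontal cortex and striatum was depleted of ribosomal RNA and sequenced, and the authors deposited raw counts per gene identifier, made with STAR on GRCm38 after bcl2fastq 1.9.0 and Trim Galore 0.5.0 per the labels. The 27 libraries held 23686945 to 33926904 counts. The labels do not say which libraries share a mouse, so p-values measure the spread between libraries. No pair of libraries of the same group agreed within sampling noise, and pairs across groups were not compared. The closest pair, wild-type frontal cortex libraries 4 and 6, had a chi-square of 2.2 per gene, against 3.89 for the next pair.

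Counts were scaled by TMM and tested by the quasi-likelihood test of edgeR 4.0.16 (R 4.3.3) over the genes that reached 1 CPM throughout the libraries fitted, with Benjamini-Hochberg adjustment and a threshold of 0.05. Genotype and sex were fitted within each region, and region with genotype and sex over all libraries. Alternatives were DESeq2 1.42.0, edgeR's likelihood ratio test, limma 3.58.1 with voom weights, other scalings and filters, other covariates and leaving out libraries. The scripts were tested on simulated data. CPM is TMM-scaled over all 27 libraries. Levels per kilobase used exon lengths of an older annotation, GENCODE vM1, and within-library differences and correlations used log2(CPM + 0.5).

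The members and the lists were chosen with earlier results of these data known. All 10 members were named, with up to 3 genes of smallest p from each list, the 5 genes most like Cldn5 and Plvap, and Igf2. Of 140 listed genes 138 were matched, Hbb-bs and Hbb-bt not. Gtpbp3, Abcb1b and the levels of Ttr, Slc17a7 and Drd1 were added after values were seen. Promoter sequences and gene coordinates are from RefSeq (GRCm38.p6). The strand setting of the counting is not given in the sources used here.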

Additional observations from a re-analysis of the deposited data

Results flagged for a closer look

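Of the 40 groups examined (10 genes in 4 groups), 6 held 1 library far from the others, where chance gives about 1 group in 20. Plvap in wild-type frontal cortex had 13.11 CPM in library 8, while the other 5 held 14.5 to 14.9 CPM. Plvap in Igf2enh-/- striatum had 13.6 CPM in library 17, while the other 7 held 15.5 to 16.6 CPM, and its genotype call in edgeR appears when this library is left out (adjusted p = 0.0174, range over the alternatives 0.000298 to 0.170). Vwf in wild-type striatum was at 31.76 CPM in library 22, against 23.3 to 25.1 CPM. Pecam1 in wild-type striatum was at 23.55 CPM in library 20, against 18.0 to 19.8 CPM. Cdh5 in Igf2enh-/- frontal cortex was at 15.78 CPM in library 1, against 13.6 to 14.3 CPM. Abcb1a in Igf2enh-/- frontal cortex was at 31.31 CPM in library 11, against 34.8 to 37.0 CPM.

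The genotype difference differed between the sexes at an unadjusted p under 0.05 in edgeR's quasi-likelihood test for 4 terms, none of which passed adjustment over all genes. The log2 terms (males minus females) were -0.8423 for Slc2a1 in striatum (SE 0.163), -0.5324 for Slc2a1 in frontal cortex (SE 0.181), -0.5051 for Mfsd2a in striatum (SE 0.164) and 0.2784 for Plvap in striatum (SE 0.111).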

How the results depend on the processing

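Of 2150 alternative values for single members, 1997 kept their direction and side of the threshold, 114 changed sign, 14 gained and 25 lost a call. The cause of these changes was not tested. No paired analysis was possible because each library has a number of its own and the groups share none. Called members in the genotype comparison numbered 2 in frontal cortex under the likelihood ratio test, DESeq2 and no filter, and 1 in striatum under the likelihood ratio test and DESeq2, with 0 to 1 on leaving out 1 library (1 without library 17). Called members between regions numbered 1 under total-count scaling, filterByExpr, no filter, no covariates and wild type alone, 0 in Igf2enh-/- alone, and 1 to 2 on leaving out 1 library. Without a filter, 2 members were called for sex and 1 for sex by genotype in frontal cortex. In striatum 1 was called for sex by genotype under the likelihood ratio test and DESeq2.

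Genes called over the whole table for genotype in frontal cortex were 53, and 232 with the likelihood ratio test, 247 with DESeq2, 459 without a filter, 35 with RNA concentration and 8 to 96 on leaving out 1 library. In striatum they were 5, and 56, 112 and 10 with the first 3 of these, 13 with filterByExpr, 10 with RNA concentration, 3 with limma-voom, 3 without sex, and 3 to 8 on leaving out 1 library. For sex in frontal cortex they were 6, and 28, 21 and 185 in that order, 14 with filterByExpr and 0 with RNA concentration. For sex in striatum they were 6, and 12, 16 and 14, 12 with filterByExpr and 3 without libraries 15 and 20. For sex by genotype they were 3, and 12, 8 and 310 in frontal cortex, and 0, 1 and 2 in striatum in the quasi-likelihood test, the likelihood ratio test and DESeq2.

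These log2 differences changed sign. For genotype in striatum, Cdh5 was at 0.04366 with RNA concentration and 0.01614 without libraries 15 and 20, Vwf at 0.02926 with RNA concentration, and Mfsd2a at 0.02142 with RNA concentration, 0.001965 with the trimming record and 0.03796 without libraries 15 and 20. Between regions, Pecam1 was at -0.02309 in wild type alone and -0.004373 without libraries 15 and 20, Slc2a1 at -0.02722 and Abcb1a at -0.01919 in Igf2enh-/- alone, and Mfsd2a at 0.01023 under total-count scaling and 0.07136 in wild type alone. The region by genotype term of Flt1 was 0.003107 with RNA concentration and 0.0244 without libraries 15 and 20. For sex in frontal cortex with RNA concentration, Mfsd2a was at 0.1338 and Plvap at -0.09558. For sex in striatum with the trimming record, Cldn5 was at 0.008773, Pecam1 at 0.02695 and Flt1 at -0.002186. With RNA concentration, Pecam1 was at 0.02024, Cdh5 at 0.009644 and Abcb1a at 0.03631. Abcb1a was also at 0.007639 under total-count scaling, 0.001878 without a filter and 0.01019 without genotype.

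On leaving out 1 library, values that changed sign had these ranges. For genotype in frontal cortex they were -0.04809 to 0.02003 for Pecam1, -0.01006 to 0.0797 for Flt1 and -0.1435 to 0.0007139 for Vwf. For genotype in striatum they were -0.04949 to 0.03268 for Cdh5, -0.06118 to 0.03717 for Vwf and -0.06619 to 0.05017 for Mfsd2a. Between regions they were -0.001534 to 0.04199 for Pecam1, -0.004128 to 0.03658 for Abcb1a and -0.04652 to 0.02648 for Mfsd2a. For the region by genotype term they were -0.05287 to 0.1034 for Cldn5, -0.03908 to 0.0409 for Flt1, -0.04732 to 0.06626 for Tek, -0.0009794 to 0.08305 for Cdh5 and -0.04696 to 0.115 for Vwf. For sex they were -0.09081 to 0.003798 for Flt1, -0.07575 to 0.06169 for Mfsd2a and -0.01636 to 0.05133 for Plvap in frontal cortex, and -0.06541 to 0.006628 for Pecam1 and -0.03737 to 0.0334 for Abcb1a in striatum. The genotype differences of Plvap, Cldn5 and Tek kept their sign in every alternative of both regions. The fits without libraries 15 and 20 were chosen after seeing the data. The lowest member value rested on 271 counts, which limits its precision.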
